A study of Mus musculus with 9 samples.

Results

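The C/EBP transcription factors were followed across the paraventricular nucleus (PVN) of mice on 3 regimens, as the 5 genes Cebpa, Cebpb, Cebpd, Cebpg and Cebpz. They were taken by symbol from a table of 27179 genes, and all 5 passed the filter on low counts that left 17344 genes for testing. The family was chosen by the counts of Cebpb, which was low in the HFD samples and not in the other samples. The values of Cebpb in HFD against Control and in HFD+Mino against HFD are therefore given as a description without a test, and the other 4 genes, which were included by name, were tested.

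C/EBP proteins bind DNA as dimers through a basic region and leucine zipper (bZIP), and they regulate genes of fat cell differentiation, energy metabolism and the response to inflammation. C/EBPα and C/EBPδ act with C/EBPβ in fat cells, and C/EBPβ and C/EBPδ are induced by cytokines in many cell types, microglia and astrocytes of the brain among them. C/EBPγ lacks the activation domain of its relatives and pairs with them or with ATF4. Cebpz carries the family's name without being a bZIP gene: its protein belongs to a class of factors needed for ribosome assembly in the nucleolus.

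RNA from PVN tissue punches was sequenced from 9 male wild type C57BL/6 mice (C57BL/6J in the study's methods), with 3 mice in each group. Control mice ate a control diet with less fat, HFD mice ate a diet with 60% of calories from fat for 12 weeks, and HFD+Mino mice ate the same diet and received minocycline, an antibiotic with anti-inflammatory action, at 40 mg/kg/day in their drinking water during the last 6 weeks. The mice were 5 weeks old when the diet began. The labels state an age of 35 days, which matches the start and not the end of the study, when the PVN was taken. None of these 9 mice went through the metabolic tests that other cohorts of the study did. Reads were counted per gene, and levels are given as CPM (counts scaled to the TMM-adjusted library total), or, for comparisons between genes, as CPM per kilobase of exon (RPKM).

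Total counts per sample ran from 17728590 (HFD replicate 1) to 42326213 (Control replicate 1), and the mitochondrial genome held 1.21% to 6.21% of them. The ribosomal RNA gene Rn45s lay at 239 to 461 CPM in Control, 426 to 1346 CPM in HFD+Mino and 3477 to 3829 CPM in HFD samples. The neuropeptide genes that define the PVN were nearly absent from Control replicate 1, with 6 counts of Avp (vasopressin, 0.149 CPM), 0.770 CPM of Oxt (oxytocin) and 0.770 CPM of Sim1, against 157 and 990 CPM of Avp in the other Control samples. Avp was at 590 to 1984 CPM in HFD, while among HFD+Mino samples it reached 28049 CPM in replicate 1, 22180 CPM in replicate 2 and 1218 CPM in replicate 3. The main C/EBP values are therefore also given without Control replicate 1 and HFD+Mino replicate 3. The latter was low in Avp only within its group: its level lay above every Control sample and within the HFD range. Leaving it out keeps the 2 samples with the most Avp. In bulk tissue, fewer cells of a type and less RNA per cell cannot be told apart.

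The genes are related where they encode the bZIP. The stretch of 120 coding bases around the DNA-contacting basic region is shown because it holds the longest runs that the family's transcripts share, with capitals for bases identical to Cebpb at the same place of the alignment (GENCODE M21 transcripts).
Cebpb: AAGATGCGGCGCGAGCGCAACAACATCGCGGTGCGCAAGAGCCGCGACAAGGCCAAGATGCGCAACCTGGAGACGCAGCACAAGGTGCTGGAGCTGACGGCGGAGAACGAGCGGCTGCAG
Cebpd: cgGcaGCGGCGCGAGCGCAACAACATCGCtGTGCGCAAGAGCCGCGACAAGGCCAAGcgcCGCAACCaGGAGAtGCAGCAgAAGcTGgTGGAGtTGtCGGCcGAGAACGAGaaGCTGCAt
Cebpa: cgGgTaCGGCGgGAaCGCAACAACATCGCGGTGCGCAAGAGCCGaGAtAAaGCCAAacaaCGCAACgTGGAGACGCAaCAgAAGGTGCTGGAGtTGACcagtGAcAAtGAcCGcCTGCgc
Cebpg: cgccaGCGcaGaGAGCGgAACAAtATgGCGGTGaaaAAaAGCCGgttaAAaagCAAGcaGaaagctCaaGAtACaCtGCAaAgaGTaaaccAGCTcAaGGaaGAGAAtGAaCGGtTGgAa
Cebpd was identical to Cebpb at 101 of the 120 bases (84.2%), Cebpa at 93 (77.5%) and Cebpg at 68 (56.7%). In Cebpz the best of all windows of that length matched at 49 bases (40.8%). The longest run shared by 2 of these transcripts was 29 bases (Cebpa and Cebpb), followed by 27 bases (Cebpb and Cebpd). Both runs were shorter than the sequenced reads of 50 bases, so that no read lies wholly within sequence common to 2 members.

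The promoters are shown because the family's genes did not move together, and they also differ in base composition. RefSeq (GRCm38.p6) promoters from 250 bases before the annotated start to 50 bases after it were available for Cebpa, Cebpb and Cebpg, and are printed up to 30 bases after the start, with capitals for the motifs TGACG (the core of sites for CREB and ATF factors), CCAAT (bound by NF-Y) and TATAAA on either strand. The promoters of Cebpd and Cebpz are not shown.
Cebpb, chr2:167688665-167688944: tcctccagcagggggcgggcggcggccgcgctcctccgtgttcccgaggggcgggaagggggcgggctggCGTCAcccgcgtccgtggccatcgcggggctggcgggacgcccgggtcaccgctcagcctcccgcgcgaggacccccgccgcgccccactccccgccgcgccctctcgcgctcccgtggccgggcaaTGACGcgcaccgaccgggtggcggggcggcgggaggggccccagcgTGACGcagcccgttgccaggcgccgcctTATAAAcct
Cebpa, chr7:35119043-35119322: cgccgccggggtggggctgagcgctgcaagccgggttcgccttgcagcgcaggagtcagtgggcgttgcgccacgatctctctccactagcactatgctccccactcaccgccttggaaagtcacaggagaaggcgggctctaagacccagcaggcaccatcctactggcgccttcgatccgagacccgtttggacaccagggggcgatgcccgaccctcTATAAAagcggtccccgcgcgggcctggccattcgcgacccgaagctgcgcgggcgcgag
Cebpg, chr7:35056537-35056816: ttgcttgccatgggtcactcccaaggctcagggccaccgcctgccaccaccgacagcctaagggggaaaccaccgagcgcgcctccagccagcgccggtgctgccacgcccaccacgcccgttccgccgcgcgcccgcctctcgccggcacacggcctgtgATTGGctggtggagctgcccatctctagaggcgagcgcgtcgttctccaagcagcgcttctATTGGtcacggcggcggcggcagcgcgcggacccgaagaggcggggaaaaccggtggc
The Cebpb promoter (plus strand) held 80.7% G and C, the Cebpg promoter (minus strand) 71.7% and the Cebpa promoter (plus strand) 67.3%, against a median of 52.7% over 32851 promoters. TGACG occurred 3 times in the Cebpb promoter and in neither of the others, and 20.8% of all promoters held it. CCAAT occurred 2 times for Cebpg alone (37.4% of all promoters), and TATAAA at 1 place for Cebpa and at 1 place for Cebpb (13.6%). Counted from the annotated start, TATAAA began at −30 in Cebpa and at 21, which is after the start, in Cebpb. GGGCGG, the core of Sp factor sites, occurred 5 times for Cebpb, with 2 of the matches overlapping each other, and at 1 place for Cebpg (35.7%), and is not in capitals. Neither TTGCNNAA, a core of C/EBP sites (10.8%), nor TGATGNAA, a composite of C/EBP and ATF sites (3.97%), was found in these 3 windows.

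Cebpb, which encodes C/EBPβ, was low in every HFD sample. It had 439, 406 and 667 counts in Control replicates 1 to 3 (10.9, 11.5 and 19.6 CPM). It had 6, 11 and 18 counts in the HFD replicates (0.301, 0.319 and 0.448 CPM), and 353, 173 and 686 counts in the HFD+Mino replicates (12.1, 6.43 and 18.7 CPM). The highest HFD sample thus lay below every Control and every HFD+Mino sample, while Control and HFD+Mino overlapped. Counting error alone gives the 6 counts of HFD replicate 1 an exact 95% Poisson interval of 2.20 to 13.1 counts, which covers no variation between mice.

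**Figure D1:**
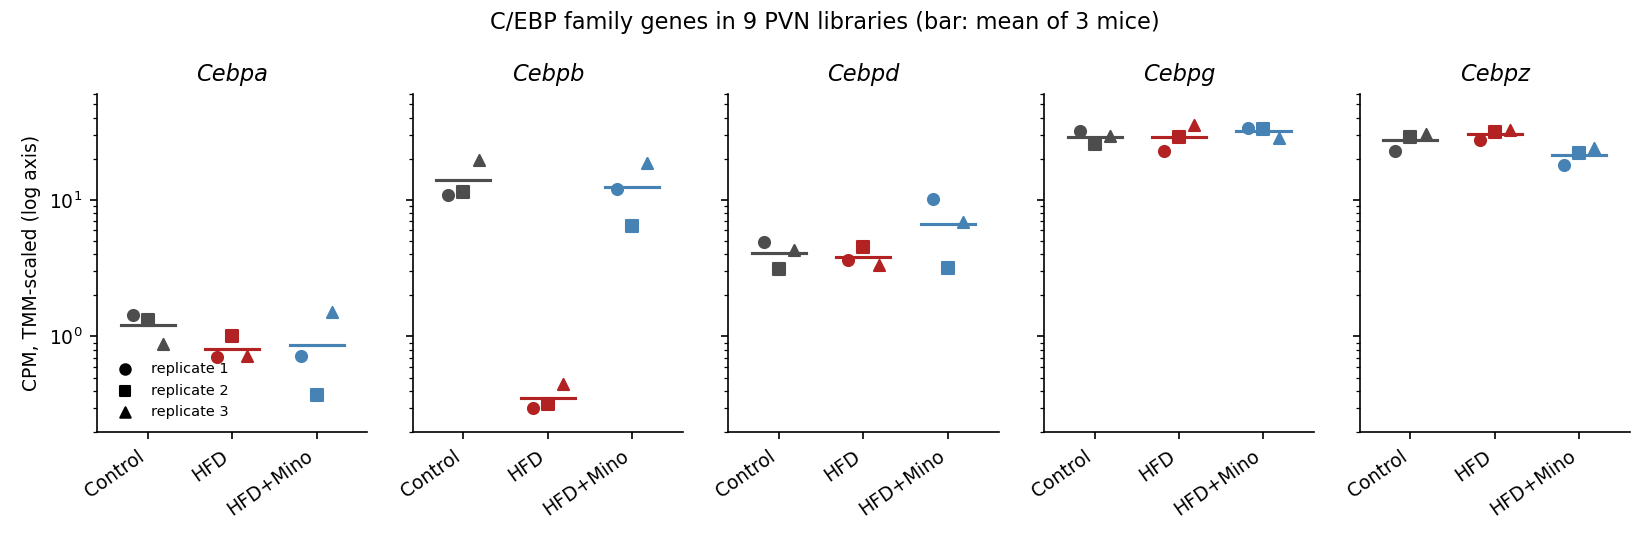
CPM (TMM-scaled, log axis) of the 5 genes in 9 PVN libraries, by group; each symbol is 1 mouse and the bar is the mean of 3 mice. The Cebpb points of HFD lie at 0.301 to 0.448 CPM, below all other Cebpb points, while the groups of Cebpa, Cebpd and Cebpg overlap, and for Cebpz HFD+Mino lies below HFD.

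The mean level of Cebpb was 14 ± 4.89 CPM in Control and 0.356 ± 0.0802 CPM in HFD, and HFD+Mino averaged 12.4 ± 6.16 CPM (SD, n = 3 each). The fitted log2 fold change was −5.26 (SE 0.50) in HFD against Control, which is 38.3-fold lower and rank 5 from the lowest of 17344 genes. It was 5.09 (SE 0.50) in HFD+Mino against HFD, which is 34.0-fold higher and rank 3 from the highest. These comparisons share the HFD samples, so their values are not independent. Between HFD+Mino and Control the log2 fold change was −0.17 with a 95% interval of −1.04 to 0.70 (FDR 0.820, edgeR's quasi-likelihood test). The family was chosen with Cebpb not low in either of these groups, so this value is not independent of the choice.

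Leaving out the library with the least Avp of the Control group and that of the HFD+Mino group, Control replicate 1 and HFD+Mino replicate 3, gave a log2 fold change of Cebpb of −5.41 in HFD against Control, of 4.65 in HFD+Mino against HFD and of −0.75 in HFD+Mino against Control (FDR 0.189). Without Rn45s and the mitochondrial genes in the table, the log2 fold changes of Cebpb stayed at −5.26 and 5.09. In HFD+Mino the gene varied more between mice than in HFD, and the HFD+Mino sample with the least Avp, replicate 3, had the most Cebpb. In Control it was the other way: the sample with the least Avp, replicate 1, had the least Cebpb (10.9 CPM).

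Cebpa, which encodes C/EBPα, a factor of fat cell and liver differentiation, was the least abundant family member in Control. It had 58, 47 and 30 counts in Control (1.44, 1.33 and 0.883 CPM), 14, 35 and 29 counts in HFD (0.703, 1.02 and 0.722 CPM) and 21, 10 and 55 counts in HFD+Mino (0.719, 0.371 and 1.5 CPM). The 3 groups overlapped. The log2 fold change was −0.58 in HFD against Control (95% interval −1.92 to 0.77, FDR 0.628), 0.09 in HFD+Mino against HFD (−1.25 to 1.44, FDR 0.926) and −0.48 in HFD+Mino against Control (−1.82 to 0.85, FDR 0.662). Each of these intervals included a level lower by 2-fold, so a change of that size was not detectable at 10 to 58 counts per sample.

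Cebpd, which encodes C/EBPδ, a factor induced early in inflammation and fat cell formation, had 199, 111 and 145 counts in Control (4.94, 3.13 and 4.27 CPM) and 72, 156 and 133 counts in HFD (3.61, 4.52 and 3.31 CPM). In HFD+Mino it had 294, 85 and 250 counts (10.1, 3.16 and 6.83 CPM), so that replicates 1 and 3 lay above every other sample and replicate 2 among the Control and HFD samples. The log2 fold change was −0.11 in HFD against Control (95% interval −1.03 to 0.81, FDR 0.909), 0.81 in HFD+Mino against HFD (−0.11 to 1.73, FDR 0.169) and 0.70 in HFD+Mino against Control (−0.22 to 1.62, FDR 0.345).

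Cebpg, which encodes the partner factor C/EBPγ, was at 31.8, 25.8 and 29.5 CPM in Control, 22.8, 28.8 and 35.4 CPM in HFD and 33.7, 32.9 and 28.3 CPM in HFD+Mino, from 455 to 1423 counts per sample. All 3 groups overlapped, and the log2 fold changes were −0.00 in HFD against Control (95% interval −0.50 to 0.50, FDR 0.999), 0.12 in HFD+Mino against HFD (−0.37 to 0.62, FDR 0.714) and 0.12 in HFD+Mino against Control (−0.37 to 0.62, FDR 0.772).

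Cebpz, the ribosome assembly gene, was at 22.9, 28.8 and 30.5 CPM in Control, 27.5, 31.3 and 32.6 CPM in HFD and 18, 21.8 and 24 CPM in HFD+Mino. HFD+Mino lay below HFD without overlap, which 23.5% of all tested genes also did. The log2 fold change of Cebpz in HFD+Mino against HFD was −0.52 (95% interval −1.0 to −0.03), and it did not pass the thresholds of an FDR under 0.01 and a 1.5-fold change (FDR 0.101). It was 0.15 in HFD against Control (−0.33 to 0.64, FDR 0.732) and −0.36 in HFD+Mino against Control (−0.85 to 0.12, FDR 0.351).

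Read over the family, 1 of 5 genes (Cebpb) met those thresholds in HFD against Control, as a lower level, where 1.42% of all tested genes were called lower and 1.74% in either direction. When HFD+Mino was set against HFD, Cebpb alone met them again, as a higher level, where 1.98% of all tested genes were called higher, 2.16% lower and 4.15% in either direction. As Cebpb's values chose the family, nothing is read from these counts. Between HFD+Mino and Control 0 of the 5 genes and 0 of all 17344 (0%) were called by edgeR's quasi-likelihood test, 3697 genes had an unadjusted p under 0.05, and DESeq2 called 286 genes, no C/EBP gene among them. Groups that did not overlap were found for Cebpb alone in HFD against Control (16.0% of all tested genes were lower in this way and 19.7% higher). Between HFD+Mino and HFD they were found for Cebpb, where 23.3% of all tested genes were higher, and for Cebpz. Between HFD+Mino and Control they were found for no C/EBP gene (10.1% of all tested genes lower, 8.93% higher). An unadjusted p under 0.05 was reached by 20.5%, 41.3% and 21.3% of all tested genes in these 3 comparisons, and among the other 4 C/EBP genes by Cebpz alone, in HFD+Mino against HFD.

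**Figure D2:**
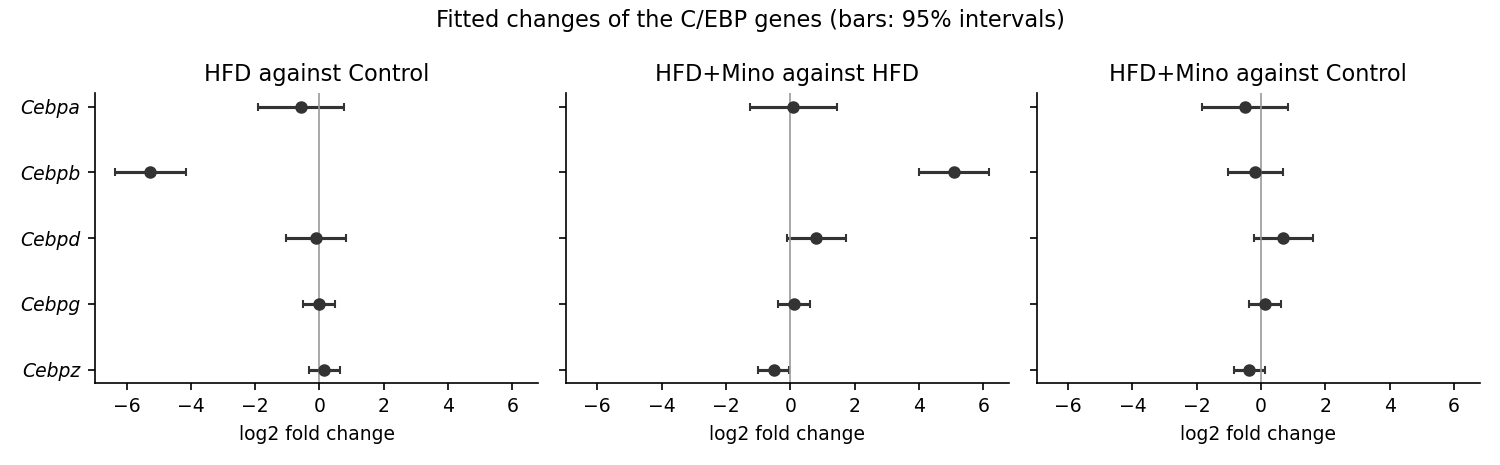
Fitted log2 fold change of each C/EBP gene (points) with its 95% interval (bars) in the 3 comparisons of groups of 3 mice. Cebpb lies at −5.26 and 5.09 in the comparisons that involve HFD and at −0.17 between HFD+Mino and Control, and the other 4 genes lie between −0.58 and 0.81 in all 3.

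Per length of transcript, the order of the genes in Control was Cebpb (9.31 ± 3.25 RPKM), Cebpz (5.88 ± 0.852 RPKM), Cebpg (5.17 ± 0.536 RPKM), Cebpd (1.10 ± 0.244 RPKM) and Cebpa (0.462 ± 0.112 RPKM, SD, n = 3 each). The ranges of Cebpz and Cebpg overlapped, and the other neighbours in this order did not. In HFD the order was Cebpz (6.54 ± 0.569 RPKM), Cebpg (5.16 ± 1.12 RPKM), Cebpd (1.02 ± 0.169 RPKM), Cebpa (0.309 ± 0.0664 RPKM) and Cebpb (0.237 ± 0.0533 RPKM), with Cebpz and Cebpg overlapping and Cebpa and Cebpb overlapping. In HFD+Mino it was Cebpb (8.26 ± 4.10 RPKM), Cebpg (5.63 ± 0.518 RPKM), Cebpz (4.57 ± 0.650 RPKM), Cebpd (1.78 ± 0.922 RPKM) and Cebpa (0.328 ± 0.220 RPKM), with Cebpb, Cebpg and Cebpz overlapping. Exon lengths are those of GENCODE, and the RefSeq span of Cebpd (chr16:15887286-15889545) is shorter than the 3746 bases used for it, so its level per length may be understated.

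Among the 4 bZIP members, Cebpb made up 49.1% to 66.0% of the summed RPKM in Control samples, 3.06% to 3.84% in HFD samples and 38.5% to 62.7% in HFD+Mino samples. Cebpg made up 26.5% to 38.3%, 73.9% to 81.2% and 25.3% to 52.7% in the same groups. The summed level of the 4 genes was 13.6 to 19.8 RPKM in Control, 5.49 to 7.76 RPKM in HFD and 11.1 to 19.9 RPKM in HFD+Mino, so the transcripts of the bZIP members in HFD were mostly those of the factor without an activation domain. These shares follow from Cebpb's values and are a description.

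The paralogs were also compared within each library, as the log2 ratio of their CPM plus 0.5, which depends little on how libraries are scaled. Cebpb over Cebpd was 1.62 ± 0.51 for Control, −2.33 ± 0.31 for HFD and 0.86 ± 0.57 for HFD+Mino. Cebpb over Cebpg was −1.07 ± 0.47, −5.09 ± 0.20 and −1.43 ± 0.84, and Cebpb over Cebpz −0.98 ± 0.34, −5.18 ± 0.09 and −0.86 ± 0.72, in the same order (SD, n = 3 each). The added 0.5 exceeded every HFD value of Cebpb (0.301 to 0.448 CPM), so the size and SD of its HFD ratios depend on that setting. Against each of the 4 other genes the HFD samples lay outside the range of the other 6 samples. Ratios that do not involve Cebpb were tested between the 3 HFD samples and the 6 other samples, as 6 pairs. None passed: the lowest exact permutation p (two-sided) was 0.143 (0.286 after Benjamini-Hochberg adjustment over 6 pairs), for Cebpa over Cebpz (difference −0.51), Cebpd over Cebpz (−0.69) and Cebpg over Cebpz (−0.42). The other 3 pairs had differences of 0.17 (Cebpa over Cebpd), −0.10 (Cebpa over Cebpg) and −0.27 (Cebpd over Cebpg), each with an adjusted exact permutation p of 0.762. The smallest p that 3 samples against 6 allow is 0.0119.

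**Figure D3:**
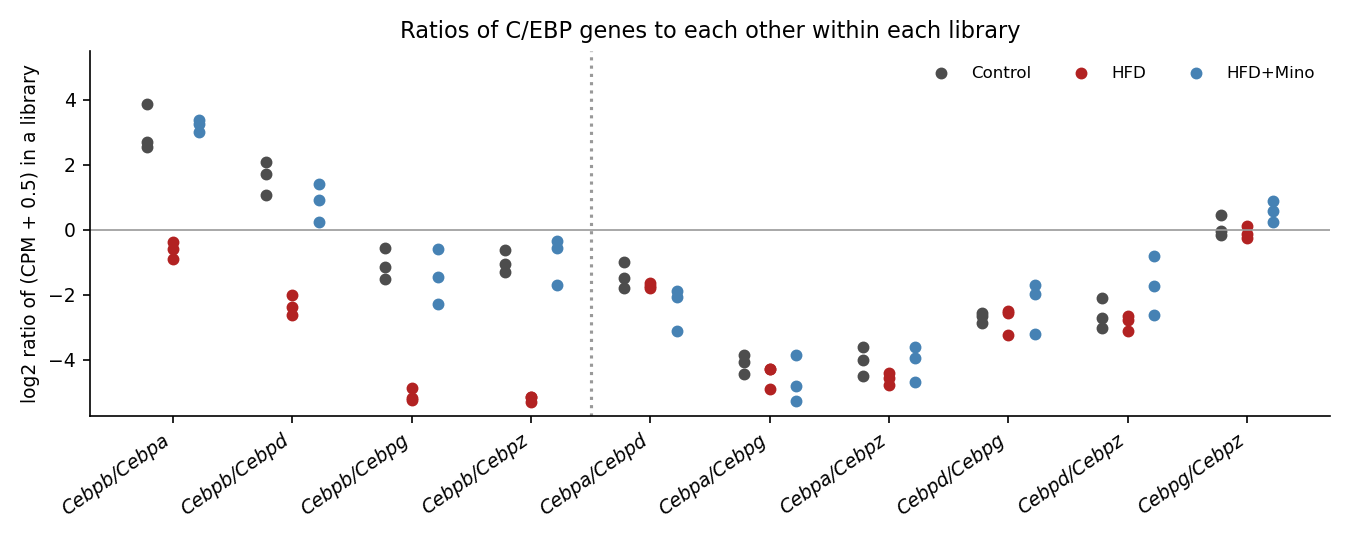
Log2 ratio of the CPM (plus 0.5) of 2 C/EBP genes within each library, with 3 points per group; pairs left of the dotted line involve Cebpb. The HFD points of the Cebpb pairs lie below those of both other groups, and for the pairs without Cebpb the HFD points overlap the range of the other 6 libraries.

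Of the family's relatives outside the 5 genes, Cebpe, which encodes the granulocyte factor C/EBPε, had 0 to 2 counts per sample and was not tested. Ddit3 encodes CHOP, a stress-induced partner that keeps C/EBP proteins from their usual sites. It was at 48.5, 31.1 and 27.0 CPM in Control, 19.9, 27.7 and 22.7 CPM in HFD and 96.0, 92.1 and 31.9 CPM in HFD+Mino, with replicates 1 and 2 of HFD+Mino above all other samples. Its log2 fold change was −0.60 in HFD against Control (FDR 0.405), 1.65 in HFD+Mino against HFD (FDR 0.0150) and 1.04 in HFD+Mino against Control (FDR 0.170), none within the FDR threshold of 0.01. Ddit3 was called higher in HFD+Mino than in HFD by DESeq2, and also when same-numbered Control and HFD+Mino samples were treated as pairs.

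In position and structure the 5 genes share little. Cebpb (chr2:167688915-167690432, plus strand) is a single exon of 1504 bases without introns. Cebpa (chr7:35119293-35121928, plus strand) and Cebpg (chr7:35046422-35056566, minus strand) are neighbours on chromosome 7, 62726 bases apart. Cebpz (chr17:78919003-78937070, minus strand) has 16 exons in its longest transcript. Positions are those of RefSeq on GRCm38.p6.

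Cebpb overlaps the exons of Tmem189, on the other strand, by 312 bases in GENCODE M21, and the kit that made the libraries does not mark strand, so reads from that stretch cannot be told apart. Tmem189 was at 101, 48.6 and 44.7 CPM in Control, 9.74, 16.3 and 16.9 CPM in HFD and 40.8, 19.6 and 50.2 CPM in HFD+Mino. Its log2 fold change was −2.17 in HFD against Control (FDR 0.0131) and 1.36 in HFD+Mino against HFD (FDR 0.0325), in each case smaller than that of Cebpb and outside the FDR threshold. Cebpz overlaps Cebpzos by 171 bases, also on opposite strands, and Cebpzos had a log2 fold change of 1.5 in HFD+Mino against HFD (FDR 0.0182), opposite in sign to Cebpz. Cebpd overlaps Spidr by 562 bases, and Spidr had log2 fold changes of 0.10 (FDR 0.940) and −0.43 (FDR 0.605) in the same 2 comparisons.

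Base composition moved with both comparisons that involve HFD over all genes, as did Rn45s. No label says which libraries were prepared together. For the Cebpb values, diet or minocycline thus cannot be told apart from any preparation that the 3 HFD libraries share. In Cebpb 89% of the GC-richest 100 bases of the longest transcript were G or C, against 86% in Cebpg, 85% in Cebpa, 79% in Cebpd and 67% in Cebpz. Of the 1112 tested genes with 85% to 89% in that stretch, 11.6% were called lower in HFD, and of the 189 with 90% or more, 19.6% were. Below 85% the share ran from 0.251% to 1.21% in classes of 5 percentage points. In HFD+Mino against HFD, 10.6% of the 1301 genes with 85% or more were called higher, against 1.30% of those below 85%. Cebpb lies in the class of 85% to 89% and so do Cebpa and Cebpg, which were not called. The 3 genes are alike in the G and C percentage of that stretch and not in its place: it lies within the coding bases in Cebpa but not in Cebpb or Cebpg. Over the whole longest transcript, G and C made up 67.2% of Cebpb (percentile 99.9 of tested genes), 62.6% of Cebpa (98.8) and 43.3% of Cebpg (16.8). After the trend of each sample on the GC-richest 100 bases was removed (chosen once the data had been seen), the log2 fold change of Cebpb was −4.53 in HFD against Control and 4.64 in HFD+Mino against HFD. With the trend on the GC content of the whole exons removed it was −4.60 and 4.45.

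**Figure D4:**
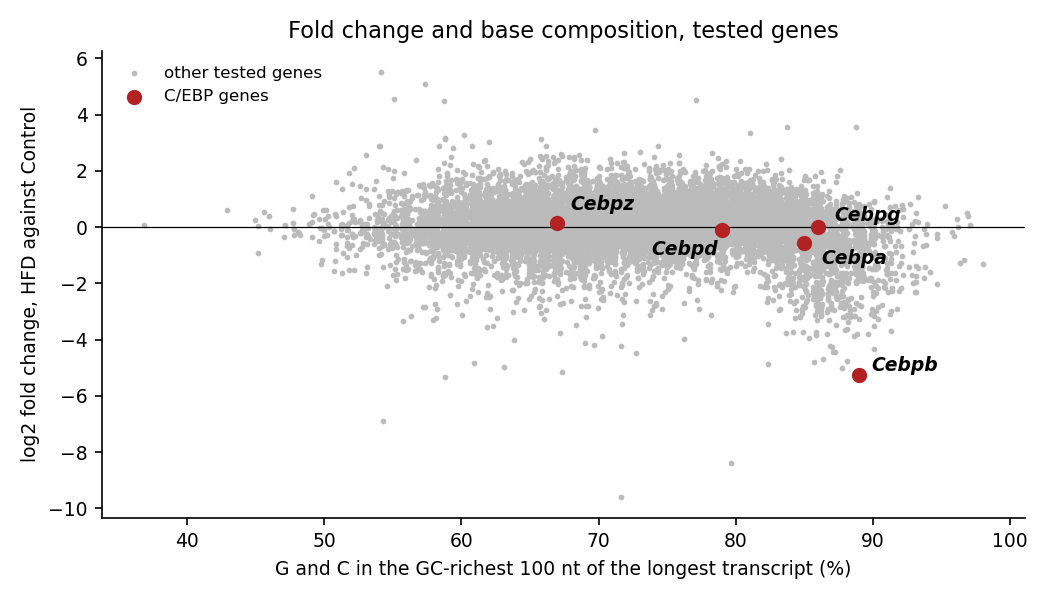
Log2 fold change in HFD against Control (y axis) against the percentage of G and C in the GC-richest 100 bases of the longest transcript (x axis), with a point for each tested gene and the C/EBP genes in red. Cebpb (89%, −5.26) lies among the lowest points, while Cebpa (85%, −0.58) and Cebpg (86%, −0.00) lie near the bulk of genes of like GC content in that stretch, whose median was −0.47 in the class of 85% to 89%.

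Lists of genes around the C/EBP factors were followed in the same model. The median log2 fold change over all 17344 genes was 0.00 in HFD against Control, 0.01 in HFD+Mino against HFD and −0.02 in HFD+Mino against Control, where edgeR called no list gene, while DESeq2 called 2 adipose targets lower and 1 gene of the amino acid response higher. Counts given "with the block" come from a fit that pairs same-numbered Control and HFD+Mino samples, a pairing that no label gives. In that fit 7.59% of all tested genes were called in HFD against Control and 26.0% in HFD+Mino against HFD, against 1.74% and 4.15% without it. The lists' counts stand beside these shares, and with lists of this size a count of 0 or 1 is near them. DESeq2 also called more genes over all, 1143 in HFD against Control and 3796 in HFD+Mino against HFD, against 302 and 719 by edgeR. Its list counts stand beside those totals.

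Among 16 bZIP partners of C/EBP factors, 2 were called lower in HFD than in Control, 0 higher, and the median log2 fold change was −0.38. Jund encodes JunD, a subunit of the AP-1 factor. It was at 124, 110 and 141 CPM in Control, 8.48, 30.4 and 18 CPM in HFD and 122, 59.1 and 169 CPM in HFD+Mino, and HFD lay below all other samples. Its log2 fold change was −2.72 (SE 0.47, FDR 0.00735) in HFD against Control and 2.62 (SE 0.47, FDR 0.00705) in HFD+Mino against HFD. Crebzf encodes a bZIP protein that binds partners rather than DNA, and had log2 fold changes of −2.19 (SE 0.31, FDR 0.00257) and 1.60 (SE 0.30, FDR 0.00846). These 2 were also the only partners called in HFD+Mino against HFD, where the list's median was 0.74 and the block gave 7 calls, 3 of them higher.

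Among 16 other bZIP factors, 1 was called lower in HFD than in Control (3 called with the block, 2 of them higher): Mafg, a small Maf protein that pairs with NRF factors, with a log2 fold change of −1.53 (FDR 0.00954). Of the same 16 genes, 2 were called lower in HFD+Mino than in HFD, and 6 were called with the block, 3 of them higher. Nfe2l1, which encodes the proteasome regulator NRF1, had a log2 fold change of −2.00 (FDR 0.00471), and Atf6, a sensor of unfolded protein in the endoplasmic reticulum, one of −1.26 (FDR 0.00846). The medians were 0.03 and 0.07.

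Of 17 tested genes of the cytokine and gp130 signaling that induces Cebpb and Cebpd, Cntfr was called lower in HFD than in Control (log2 fold change −2.12, FDR 0.00667). It encodes the receptor subunit for ciliary neurotrophic factor. Il6st, which encodes gp130 itself, was called lower in HFD+Mino than in HFD (−1.83, FDR 0.00859). The remaining 16 genes of each comparison were not called, and the list's medians were 0.68 and −0.91. With the block 3 genes were called in HFD against Control, 2 of them higher, and 4 in HFD+Mino against HFD, 1 of them higher.

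Among 22 kinases and other regulators of C/EBP proteins, 3 were called lower and 1 higher in HFD than in Control (median 0.12). Gsk3a encodes a kinase that phosphorylates C/EBPα and C/EBPβ. It was at 72.2, 67.7 and 75.2 CPM in Control, 4.47, 5.95 and 5.85 CPM in HFD and 28.7, 15.4 and 80.5 CPM in HFD+Mino, and HFD lay below all other samples. Its log2 fold change was −3.72 (SE 0.52, FDR 0.00234) in HFD against Control and 2.93 (SE 0.50, FDR 0.00604) in HFD+Mino against HFD. Cop1, whose protein marks C/EBPα for degradation together with Tribbles proteins, had −2.67 (FDR 0.00206) and 1.77 (FDR 0.00951), and Prmt1, an arginine methyltransferase, −1.68 (FDR 0.00213) and 2.17 (FDR 7.4e-04). Camk2a, a calcium-dependent kinase of neurons, was higher in HFD (2.09, FDR 0.00734) and lower in HFD+Mino than in HFD (−1.98, FDR 0.00760). Trib2, a Tribbles gene, was called in HFD+Mino against HFD alone (−1.75, FDR 0.00533), so that 3 of the 22 genes were called higher and 2 lower there (median −0.52). The block gave 5 calls in HFD against Control, 2 of them higher, and 8 in HFD+Mino against HFD, 3 of them higher.

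Known targets of C/EBP factors are read beside the shares of all tested genes that were called, 1.74% in HFD against Control and 4.15% in HFD+Mino against HFD. Counts by DESeq2 and with the block are read beside their own larger totals, given above. Of 24 inflammatory and acute phase targets 15 were tested, and 0 were called in any comparison, with medians of −0.35 and 0.51 in HFD against Control and HFD+Mino against HFD. The most abundant, Csf1r, the receptor for colony-stimulating factor on microglia, had log2 fold changes of 0.65 (FDR 0.309) and −0.97 (FDR 0.0564), and Serpina3n, an acute phase protease inhibitor, −0.35 (FDR 0.410) and 0.43 (FDR 0.175). DESeq2 called 1 of these 15 targets in HFD+Mino against HFD and the block 3, 1 of them higher. Of 18 tested adipose and metabolic targets, Scd2, a desaturase of fatty acid synthesis, was called lower in HFD+Mino than in HFD (−2.24, FDR 0.00257), and 0 were called in HFD against Control, where Scd2 had a log2 fold change of 0.97 (FDR 0.0856) and Scd1 0.39 (FDR 0.330). DESeq2 called 1 of the 18 in HFD against Control and the block 3, all of them higher, and in HFD+Mino against HFD the block called 4, none of them higher. The medians were 0.32 and −0.50.

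Of 19 tested genes of the amino acid response, which C/EBP and ATF4 dimers regulate, 1 was called, Eif4ebp1, an inhibitor of translation, which was higher in HFD+Mino than in HFD (2.08, FDR 0.00879). With the block 4 were called there, all of them higher. In HFD against Control 0 were called by edgeR or DESeq2, with Asns (asparagine synthetase) at −0.40 (FDR 0.372) and Slc3a2, an amino acid transporter subunit, at −0.33 (FDR 0.431). The medians were −0.33 and 0.18. The 24 genes of ribosome assembly, the process in which Cebpz acts, gave 0 calls, with medians of 0.03 and 0.26. Rrp1 had log2 fold changes of 0.17 (FDR 0.726) and −0.42 (FDR 0.206), and Npm1 (nucleophosmin) 0.32 (FDR 0.594) and 0.39 (FDR 0.372). DESeq2 called 3 of the 24 in HFD+Mino against HFD, and the block 4, of which 3 were higher.

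Among 9 factors of other families that bind CCAAT or related motifs, Nfia, a nuclear factor I gene, was called higher in HFD than in Control (1.36, FDR 0.00520) and lower in HFD+Mino than in HFD (−1.46, FDR 0.00393). Ybx1, a cold-shock protein of DNA and RNA, was called higher in HFD+Mino than in HFD (1.63, FDR 0.00875). The medians were 0.01 and −0.46, and the block called 2 genes in each comparison.

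The list calls depended on single libraries. Without Control replicate 2 or without any 1 of the HFD replicates, 0 of the 9 list genes called in HFD against Control kept an FDR under 0.01, with FDR values from 0.0102 to 0.0648, while each kept its direction. Of the list genes, 14 were called in HFD+Mino against HFD. Without Control replicate 2, 2 of them kept the call, without HFD replicate 1 or 2, 1 did, and without HFD replicate 3, 0 did (FDR 0.0111 to 0.0538). The log2 fold change of Cebpb ran from −5.48 to −4.94 in HFD against Control and from 4.66 to 5.40 in HFD+Mino against HFD, when each of the 9 samples was left out in turn.

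**Figure D5:**
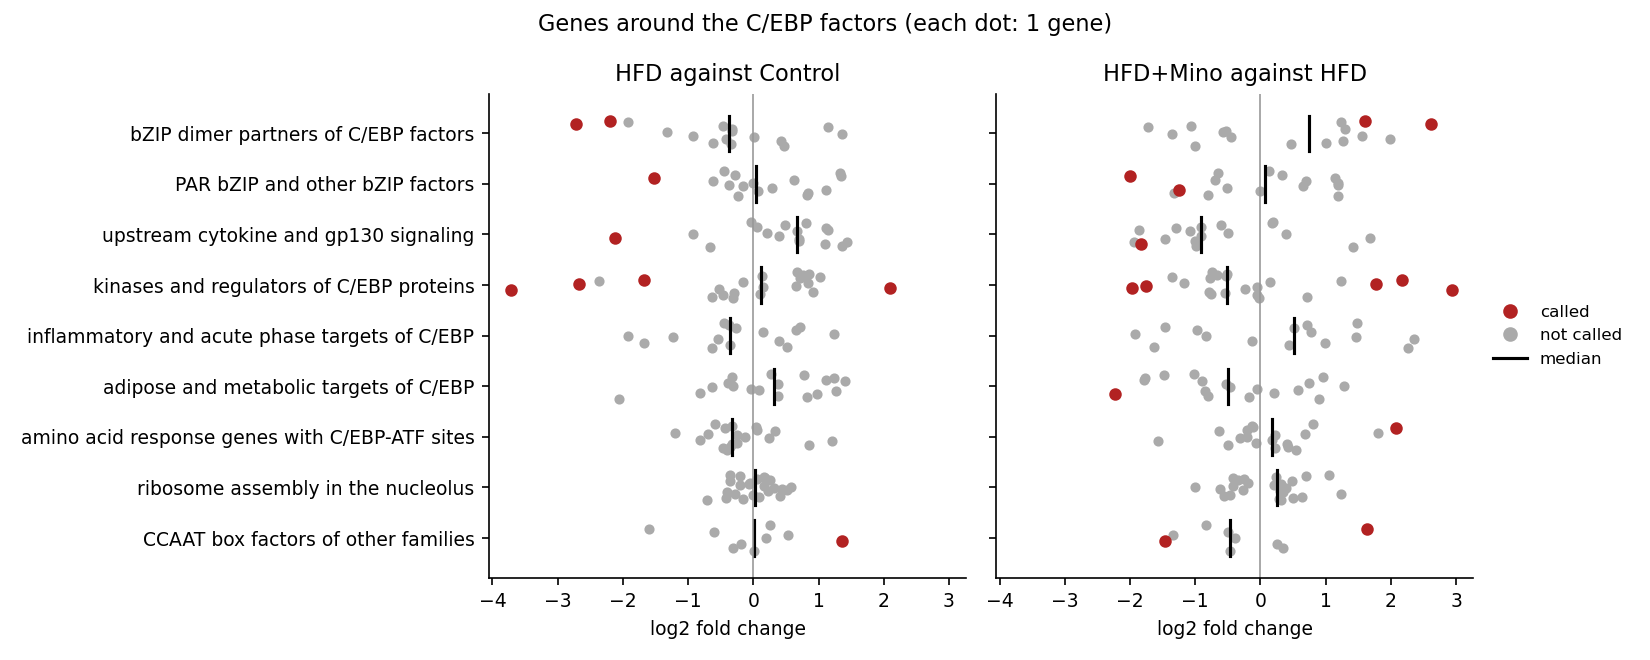
Log2 fold change of each tested gene of 9 lists around the C/EBP factors in HFD against Control (left) and HFD+Mino against HFD (right), with called genes in red and the list's median as a black line. Gsk3a at −3.72 is the lowest value on the left, and Jund and Gsk3a, at 2.62 and 2.93, are the highest called values on the right.

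Markers of the cell types that express C/EBP genes in the brain were measured in the same libraries. Of 8 microglia markers 0 were called in any comparison, and their summed level was 255 to 392 CPM in Control, 324 to 362 CPM in HFD and 351 to 359 CPM in HFD+Mino. The sum joins markers that differed in direction: in HFD against Control 5 of the 8 had a log2 fold change above 0 and 3 below 0. With the block 5 of the 8 were called in HFD+Mino against HFD, 3 of them higher, where 26.0% of all tested genes were called, and 1 was called lower in HFD against Control (7.59% of all tested genes). DESeq2 called 2 of the 8 in HFD+Mino against HFD, 1 of them higher, where it called 3796 genes in all. Of 6 astrocyte markers 0 were called, with a summed level of 1816 to 2056 CPM in Control, 2242 to 2354 CPM in HFD and 1312 to 1689 CPM in HFD+Mino. The transporter gene Slc1a3 had log2 fold changes of 0.70 (FDR 0.220) and −0.84 (FDR 0.0593), and the gap junction gene Gja1 0.10 (FDR 0.871) and −0.94 (FDR 0.0283). With the block, 2 astrocyte markers were called in HFD against Control and 4 in HFD+Mino against HFD, and DESeq2 called 0 and 3.

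Of 6 neuron markers and 5 endothelial markers 0 were called. Of the most abundant neuron markers, both for synaptic proteins, Snap25 had log2 fold changes of −0.83 (FDR 0.174) and 0.19 (FDR 0.685) and Syt1 of 0.65 (FDR 0.269) and −1.44 (FDR 0.0127), opposite in sign to each other. Of the most abundant endothelial markers, Ly6c1 (a surface protein) had −0.80 (FDR 0.397) and 2.36 (FDR 0.0126) and Slco1a4 (a transporter) −0.04 (FDR 0.964) and 0.03 (FDR 0.955). With the block 0 neuron and 2 endothelial markers were called in HFD against Control, and 2 of each in HFD+Mino against HFD, where DESeq2 also called 2 of each. In that comparison DESeq2 called 3796 genes in all. The 5 mature oligodendrocyte markers summed to 27544 CPM in Control replicate 1, the library that nearly lacked the PVN neuropeptides, and to 5293 and 3315 CPM in the other Control samples, 2271 to 6225 CPM in HFD and 1956 to 5354 CPM in HFD+Mino, with 0 called. Mbp (myelin basic protein) had log2 fold changes of −1.43 (FDR 0.303) and −0.47 (FDR 0.656). The 5 ependyma and choroid plexus markers summed to 9.04 to 56.9 CPM in Control, 63.6 to 114 CPM in HFD and 116 to 192 CPM in HFD+Mino, with 0 called. Ccdc153 had log2 fold changes of 1.13 (FDR 0.517) and 1.11 (FDR 0.379), and Foxj1 (a factor of ciliated cells) 1.44 (FDR 0.136) and −0.53 (FDR 0.449). DESeq2 called 2 of these 5 in HFD+Mino against HFD and 1 higher in HFD+Mino against Control, and the block called 1 higher in HFD against Control and 1 higher in HFD+Mino against Control. Of 6 markers of neutrophils and blood monocytes, which express Cebpa, Cebpb and Cebpe, 2 passed the filter and 0 were called, with summed levels of 4.74 to 18.9 CPM in Control, 5.95 to 10.3 CPM in HFD and 10.2 to 32.8 CPM in HFD+Mino, with Lyz2 (lysozyme) at −0.45 (FDR 0.647) and 1.48 (FDR 0.0530) and S100a9 (a neutrophil calcium-binding protein) at 5.52 (FDR 0.266) and 3.03 (FDR 0.186). The block called 1 of these 2 higher in HFD+Mino against HFD. The 6 PVN markers gave 0 calls, with Avp at 1.82 (FDR 0.551) and 3.66 (FDR 0.128) and Oxt at 1.37 (FDR 0.595) and 2.18 (FDR 0.247). Without Control replicate 1 and HFD+Mino replicate 3, 4 PVN markers were called higher in HFD+Mino than in HFD and 3 higher than in Control. Over all genes that fit called 4956 and 2121 in these comparisons. Both libraries were left out for their level of Avp, itself a PVN marker, so nothing is read from these marker counts. The part of cell makeup in the C/EBP values was not tested.

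The genes whose pattern over the 9 samples was most like that of Cebpb, by Pearson's r of log2(CPM + 0.5), were Kctd2 (r = 0.992), Mtch1 (0.991), Ptov1 (0.991), Mgat4b (0.991) and Slc25a28 (0.990). They share with it low values in the 3 HFD libraries, with log2 fold changes in HFD against Control of −3.60, −2.45, −3.11, −2.32 and −2.18 in that order. For Cebpd the most alike were Gjb5 (0.969), Cd14 (0.948), a receptor for bacterial lipopolysaccharide, and Ddx41 (0.943). For Cebpz they were Slc2a3 (0.985), a glucose transporter gene of neurons, Map2k4 (0.980) and Zfp512 (0.978), and for Cebpa Lpcat3 (0.966), C1ql3 (0.950) and Cnppd1 (0.944). Cebpg had the lowest such values, with Foxp2 (0.883), Fam19a1 (0.878) and Zfp804a (0.859). No p is attached, as these genes were picked for the correlation and share the libraries with the C/EBP genes.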

How the data were processed

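PVN punches of 9 male mice (3 per group, labels giving group and replicate) were sequenced by the authors as 2 × 50 bases from low-input cDNA libraries. The deposited values are raw counts per gene, which the authors made by aligning reads to mm10 with HISAT2 and assigning them with featureCounts. Versions and the strand setting are not given in the sources used here. The HFD columns are numbered 3 to 5 in the table and 1 to 3 in the sample titles, and the descriptions tie them. Columns left unused numbered 0. The members and lists were chosen with earlier results of these data known.

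Counts were analysed with edgeR 4.0.16 (R 4.3.3): filterByExpr, TMM scaling and 1 quasi-likelihood model with a mean per group on all 9 samples. FDR is Benjamini-Hochberg over 17344 genes, and a gene was called at an FDR under 0.01 and a change of at least 1.5-fold. Paralog ratios were tested by exact permutation (scipy 1.17.1). Exon lengths, GC content and coding stretches came from GENCODE M21 (21572 genes matched, all 5 members included), positions and promoters from RefSeq (GRCm38.p6). Code was tested on simulated data. No 2 replicates were alike within sampling noise (chi-square over its degrees of freedom 18.1 to 260). Reads carry no molecular identifiers, so intervals of counts cover counting error only.

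The deviations of same-numbered Control and HFD+Mino samples from their group means had correlations of 0.194, 0.240 and 0.395. HFD samples, matched by the numbers in their titles, did not deviate with either group (−0.203 to −0.0143). Their columns carry other numbers, and matching by those or between different numbers was not examined, so a pairing of HFD samples cannot be judged. The pairing of Control with HFD+Mino was taken from the counts, since no label names a shared litter or day. Control and HFD+Mino samples of different numbers were not compared, so these correlations do not establish it. The block is therefore an alternative setting only. The named genes are the 5 members, the genes most correlated with each, the called genes of 18 lists (up to 4 by FDR, or the 2 most abundant), and the relatives Ddit3 and Cebpe. The values of 2 marker genes that this rule names are not reported here. Tmem189, Cebpzos and Spidr were named for their overlap with members. Alternatives were DESeq2 1.42.0, the likelihood ratio test, RLE size factors, other filters and thresholds, Rn45s and mitochondrial genes left out, replicate blocks, trends on GC or length removed, thinning, 6-sample fits, and each sample left out.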

Additional observations from a re-analysis of the deposited data

How the results depend on the processing

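Of Cebpa, Cebpd, Cebpg and Cebpz, 0 were called in any comparison under each of the 27 alternatives run, nor was Cebpb in HFD+Mino against Control. The log2 fold change of Cebpb, which chose the family, ran from −5.59 to −4.34 in HFD against Control and from 3.72 to 5.40 in HFD+Mino against HFD. The 402 fold changes of members under alternatives include the Cebpb values that chose the family. They also include settings that changed only a threshold, where no direction could change. Of the 402, 380 kept their direction and their side of the threshold and 22, of results that were not called, changed sign. For Cebpg in HFD against Control these were 0.00017 (likelihood ratio test), 0.012 (thinned counts), 0.38 (trend on the GC-richest 100 bases removed) and 0.069 (the library with the least Avp of Control and that of HFD+Mino left out, both called low-Avp libraries here, though the HFD+Mino library was low only within its group), and leaving out 1 sample gave −0.18 to 0.15. For Cebpa in HFD+Mino against HFD the replicate block in Control and HFD+Mino gave −0.00186, the block with the GC trend removed −0.11 and with the length trend removed −0.38, the GC trend alone −0.083, the length trend alone −0.18, both low-Avp libraries left out −0.58, and leaving out 1 sample −0.58 to 0.45. Cebpd in HFD against Control was 0.042 without the low-Avp libraries and −0.26 to 0.041 with 1 sample left out. Cebpb in HFD+Mino against Control was 0.11 with the GC-richest trend removed and −0.60 to 0.15 with 1 sample left out, and Cebpg in HFD+Mino against HFD −0.026 to 0.30. The ratio of Cebpa to Cebpd was −0.29 in HFD against Control alone and −0.074 to 0.35 with 1 sample left out, and that of Cebpa to Cebpg 0.16 in HFD against HFD+Mino alone and −0.28 to 0.10. The cause was not tested. The block changed no call of a tested member, with Cebpb at −5.10 in HFD against Control and 4.86 in HFD+Mino against HFD, and Cebpd at 1.19 (FDR 0.0253) and Cebpz at −0.77 (FDR 0.0173) in HFD+Mino against HFD, and 0 paralog ratios passed with it. A mean count of at least 50 dropped Cebpa, which gave no value there. The GC-richest trend, the blocks combined with trends and the joint omission of 2 libraries were chosen after seeing the data. Counts over all genes moved more: 302 genes in HFD against Control became 59, 73 and 73 without HFD replicates 1, 2 and 3, 1143 with DESeq2, 1316 with the block, and 1824 with the block and the GC trend removed. The 719 genes of HFD+Mino against HFD became 54, 59 and 29 without the same samples, 3815 without HFD+Mino replicate 3, 3796 with DESeq2, 4503 with the block and 4956 without both low-Avp libraries. Between HFD+Mino and Control 0 became 1120 without HFD+Mino replicate 3, 551 with the block and 2121 without both low-Avp libraries. Depth limits Cebpa, with 10 to 58 counts per sample, and Cebpb in HFD, with 6 to 18.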
